A study of Mus musculus with 17 samples.

Results

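The genotype by CCl4 interaction asked, gene by gene, whether carbon tetrachloride (CCl4) changed expression differently in hepatocytes that lacked Yap and Taz than in wild type hepatocytes. It used all 17 of the 17 RNA-seq libraries of the study in 1 fit of 4 groups. The 4 groups were wild type untreated (n = 5), wild type CCl4 (n = 5), Yap/Taz KO untreated (n = 4) and Yap/Taz KO with CCl4 (n = 3). The contrast was the CCl4 effect in the knockout minus the CCl4 effect in wild type. A value above 0 means that the CCl4 change was more positive in the knockout. It does not say whether the genotypes stood apart before or after CCl4. Every library came from FACS-sorted hepatocytes of male mice 2 to 3 months old. Injury meant 7 doses of CCl4 (1 ug/g each) spaced 3 days apart, with cells collected 3 days after the last of them. The sources used here do not give the knockout alleles, the Cre driver or what the untreated mice received. The labels describe replicate numbers as mere identifiers within a group, and nothing says which libraries came from separate mice, so the p-values measure the spread between these libraries, which may be in part technical.

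YAP (gene Yap1) and TAZ (gene Wwtr1) are transcriptional coactivators at the end of the Hippo kinase cascade. When the kinases are inactive, YAP and TAZ enter the nucleus, bind TEAD factors and drive genes of growth, cytoskeleton and matrix, and in liver they are known for their part in regeneration and organ size. CCl4 is converted by the cytochrome P450 Cyp2e1 of pericentral hepatocytes into a radical that damages membranes, after which surviving hepatocytes re-enter the cell cycle while macrophages and stellate cells accumulate.

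Library totals ranged from 11266420 to 24775863 counts (median 14786573). The targeted genes followed the labels. Yap1 was at 37.4 to 73.6 CPM (counts scaled per library to a common total) in the 5 wild type libraries without injury, 42.5 to 64.4 in wild type CCl4, 1.21 to 8.04 in knockout untreated and 0.536 to 1.97 in knockout CCl4 libraries. Wwtr1 was at 9.86 to 18.9, 15.2 to 23.4, 1.198 to 2.51 and 2.72 to 7.09 CPM in the same order. Their interaction values were -1.49 ± 0.65 (adjusted p = 0.249) and 0.71 ± 0.42 (adjusted p = 0.411) on the log2 scale. Hepatocyte markers were high throughout: Alb was at 57256 to 107994 CPM and the 28-gene hepatocyte identity list summed to 129860 to 194098 CPM. Markers of other cells were present as well. The macrophage gene Lyz2 reached 21.5 CPM outside knockout CCl4 and was at 27.8 to 1042 there. The Kupffer cell gene Clec4f reached 19.2 CPM outside that group and 319 within it. The endothelial gene Pecam1 reached 42.6 CPM in wild type untreated, where its median was 1.01, and was at 6.58 to 33.7 in knockout CCl4. The endothelial list summed to 16.7 to 62.35 CPM in wild type untreated and 56.1 to 315 in wild type CCl4. It summed to 30.1 to 62.8 in knockout untreated and 172 to 1545 in knockout CCl4. The cholangiocyte list summed to 28.7 to 97.7 CPM, although its gene Krt19 was at or below 1.01 CPM in every library. A pair of libraries stood apart. Replicate 3 of knockout CCl4 had 34.3% of its counts in mitochondrially encoded genes, against 7.49% and 4.25% in replicates 1 and 2, and its Kupffer cell marker list summed to 3975 CPM, against 183 and 337. Replicate 5 of wild type untreated had 30.7% mitochondrial counts, against 5.32% to 20.1% in the others of that group, and its mitosis genes summed to 574 CPM, against 14.8 to 95.7. Values without these libraries stand beside many of the results that they moved.

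CCl4 changed 150 of the 13721 genes tested differently in the 2 genotypes (1.09%). The knockout effect was above that of wild type in 109 of them (0.794%) and below it in 41 (0.299%). Calls were made at an adjusted p under 0.05 from edgeR's quasi-likelihood test with Benjamini-Hochberg adjustment over all genes tested, as were all adjusted p values below. The smallest adjusted p was 0.0204 and the called genes lay between 0.0204 and 0.0495, so the whole set sat close to the threshold. At an unadjusted p under 0.05 there were 2343 genes (17.1%). CCl4 alone changed 117 genes in wild type (0.853%) and 2610 in the knockout (19%), of which 1655 were higher (12.1%) and 955 lower (6.96%). Between the genotypes, 128 genes differed without injury (0.933%) and 1622 after CCl4 (11.8%). With replicate 3 of knockout CCl4 left out (14239 genes tested), CCl4 changed 179 genes in wild type and 1666 in the knockout. In the same fit the genotypes differed in 152 genes without injury and 418 after CCl4. With all libraries, the knockout arm had fewer libraries than the wild type arm, 7 against 10. Just inside the threshold were F13b (-1.04, adjusted p = 0.0493) and Kif23 (7.21, 0.0495), and just outside were Myof (7.06, 0.0512) and A930001C03Rik (2.83, 0.0512).

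Sorted by which CCl4 effects were themselves called, 141 of the 150 genes were knockout-only, 8 amplified, 1 lost, 0 reversed and 0 damped by edgeR, with 0 reversed and 1 damped by DESeq2 among its 783 calls. Knockout-only means called after CCl4 in the knockout and not in wild type, amplified means called in both in the same direction and larger in the knockout, and lost means called in wild type only. Reversed would mean called in opposite directions and damped called in both but smaller in the knockout. The classes describe the genes with the samples that chose them and carry no test, and a wild type effect that was not called is not shown to be 0. Of the 141 knockout-only genes, 102 had a knockout effect above and 39 below that of wild type. The 102 had a median CCl4 effect of 5.73 (log2) in the knockout and 0.05 in wild type. The 39 had medians of -1.82 and -0.17. By size alone, the wild type change went the same way as the knockout change by at least 0.5 log2 in 45 of the 150, the opposite way by at least 0.5 in 25, and lay within 0.5 of 0 in 80.

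**Figure D1:**
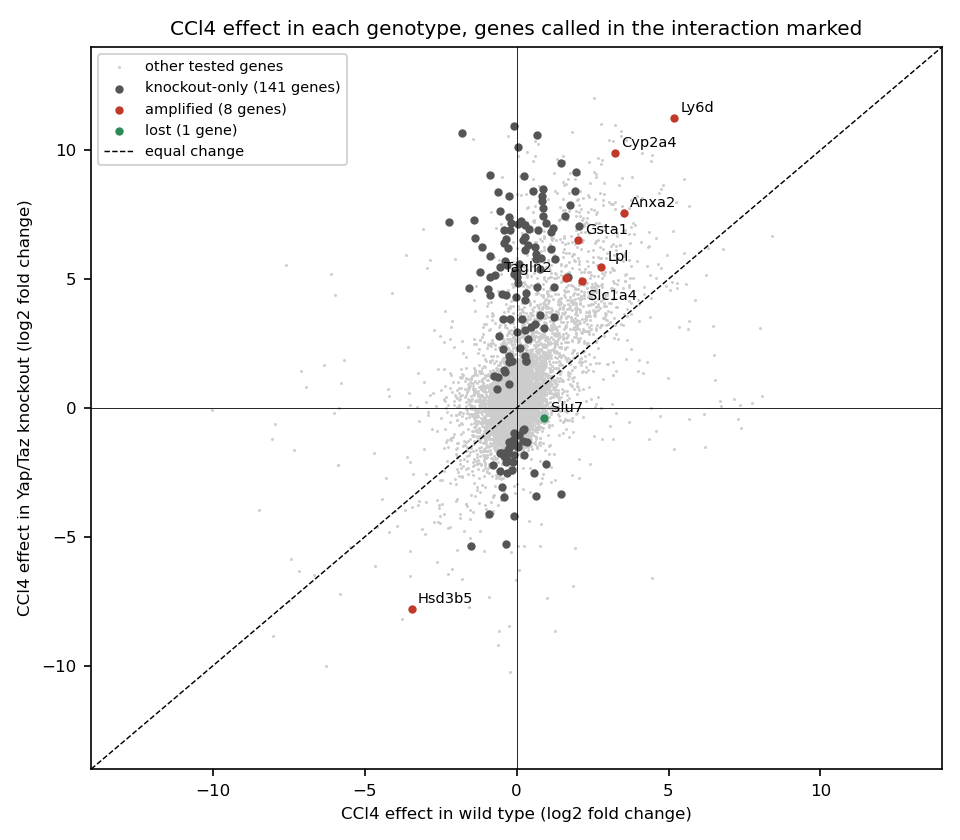
CCl4 effect in wild type (x axis, log2 fold change) against the effect in the Yap/Taz knockout (y axis, log2 fold change), 1 point per tested gene, with genes called in the interaction coloured by class and a dashed line of equal change. Of the 141 knockout-only genes, 80 stand within 0.5 of 0 on the x axis, while the 8 amplified genes lie farther from 0 on the y axis than on the x axis.

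The genotypes were also compared within each arm. Of the 109 genes above, 105 had a value below 0 for knockout against wild type without injury, 5 of them called (Cep72, Pkmyt1, Ppl, Gsta1 and Naip2), and 86 were called higher in the knockout after CCl4. Of the 41 below, 29 had a value above 0 without injury, 6 of them called, 1 was called lower without injury (Adh6-ps1), and 35 were called lower after CCl4. The 2 differences had opposite signs in 132 of the 150 genes, an arrangement that choosing genes by the difference between the arms favours, and the CCl4 difference was the larger in 114. In all 3 knockout CCl4 libraries, 67 of the 109 genes above were higher than in any of the other 14 libraries, and 31 of the 41 below were lower than in any of the other 14. Choosing genes by this contrast favours such separation. The shares of all genes tested with a larger CCl4 difference or with such separation were not counted.

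The amplified genes were an enzyme of electrophile detoxification, a steroid-metabolizing P450, injury-associated surface and cytoskeletal genes, an amino acid transporter and a lipase, all of which rose after CCl4 in both genotypes, and Hsd3b5, which fell in both. Gsta1 (chr9:78230656-78242684, mm10) encodes an alpha-class glutathione transferase that conjugates lipid peroxidation products. Gsta1 was at 4.74, 1.17, 2.39, 3.76 and 3.397 CPM in the wild type untreated libraries, 9.91, 19.9, 7.600, 11.9 and 13.97 in wild type CCl4, 0.527, 0.428, 0.714 and 0.335 in knockout untreated and 23.4, 87.9 and 32.3 in knockout CCl4. Every untreated knockout library was below every untreated wild type library, and every knockout CCl4 library was above every wild type CCl4 library. Gsta1 rose by 2.04 ± 0.39 in wild type and 6.52 ± 0.56 in the knockout, an interaction of 4.48 ± 0.65 (adjusted p = 0.0204). The untreated knockout was lower than wild type by a log2 difference of -2.56 (adjusted p = 0.0165). Gsta1 remained called in 12 of 17 fits with 1 library left out, the highest number among the 150. Its sequence is close to that of Gsta2, so reads may be shared between the copies.

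Cyp2a4 (chr7:26307169-26315088) encodes a steroid hydroxylase that is higher in female than in male mouse liver. Cyp2a4 was at 0.202, 0.5003, 0.314, 1.55 and 0 CPM in the wild type untreated libraries, 8.85, 3.47, 3.25, 4.34 and 5.07 in wild type CCl4, 0.0439, 0.257, 0 and 0 in knockout untreated and 25.9, 100 and 72.8 in knockout CCl4. The untreated libraries of both genotypes held few reads, and the groups after CCl4 did not overlap. The interaction was 6.63 ± 1.20 (adjusted p = 0.0316), and its near-identical neighbour Cyp2a5 makes the assignment of reads uncertain. Ly6d (chr15:74762056-74763620) encodes a lipid-anchored surface protein of epithelial and blood cells. Ly6d was at 0.101, 0.167, 0.126, 0.147 and 0.289 CPM in the wild type untreated libraries, 4.24, 6.74, 4.35, 10.3 and 6.12 in wild type CCl4, 0, 0.0856, 0 and 0 in knockout untreated and 25.7, 96.4 and 46.1 in knockout CCl4. The 4 untreated knockout libraries held 1 Ly6d count in all, against 3709 after CCl4, a ratio of 4175 with an exact 95% counting interval of 749 to 164942 that covers counting error only. Its fitted interaction was 6.08 ± 1.11 (adjusted p = 0.0316).

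Anxa2, a membrane-binding annexin, and Tagln2, an actin-binding protein, are genes of cytoskeletal remodelling. Anxa2 was at 0.202, 0.2501, 0.188, 0.958 and 1.88 CPM in the wild type untreated libraries, 5.36, 12.3, 8.38, 9.61 and 5.92 in wild type CCl4, 0.483, 0.0856, 0.275 and 0.6701 in knockout untreated and 38.7, 109 and 71.8 in knockout CCl4. Tagln2 was at 7.16, 4.59, 2.39, 6.71 and 3.61 CPM in the wild type untreated libraries, 13.3, 20.2, 8.53, 18.3 and 15.6 in wild type CCl4, 1.05, 2.82, 3.52 and 3.77 in knockout untreated and 49.03, 128 and 95.3 in knockout CCl4. For both genes the order of the groups was the same, with knockout CCl4 above wild type CCl4 and both untreated groups below wild type CCl4. The interactions were 4.02 ± 0.84 (adjusted p = 0.0431) and 3.40 ± 0.57 (adjusted p = 0.0316). Slc1a4 encodes a neutral amino acid transporter. Slc1a4 was at 0.706, 1.42, 2.32, 2.21 and 2.82 CPM in the wild type untreated libraries, 6.36, 11.7, 10.3, 6.73 and 7.78 in wild type CCl4, 1.14, 0.685, 1.87 and 1.68 in knockout untreated and 24.9, 50.3 and 48.5 in knockout CCl4. Its wild type rise of 2.15 and knockout rise of 4.93 gave an interaction of 2.77 ± 0.51 (adjusted p = 0.0316). Lpl encodes lipoprotein lipase, which releases fatty acids from triglyceride-rich lipoproteins. Lpl was at 6.55, 5.84, 8.23, 22.3 and 20.7 CPM in the wild type untreated libraries, 70.7, 91.02, 112, 85.2 and 80.2 in wild type CCl4, 8.17, 2.91, 11.3 and 5.19 in knockout untreated and 250.1, 295 and 374 in knockout CCl4. Its interaction was 2.67 ± 0.59 (adjusted p = 0.0443).

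Hsd3b5 (chr3:98618634-98630252) encodes a male-biased hydroxysteroid dehydrogenase of mouse liver and was the only amplified gene that fell. Hsd3b5 was at 181, 260.2, 199, 205 and 183 CPM in the wild type untreated libraries, 7.73, 15.2, 24.3, 34.3 and 12.04 in wild type CCl4, 95.5, 202, 183 and 114 in knockout untreated and 1.67, 0.107 and 0.315 in knockout CCl4. The untreated groups overlapped, wild type fell by 3.46 ± 0.47 and the knockout fell by 7.79 ± 0.77 on the log2 scale. The interaction was -4.33 ± 0.79 (adjusted p = 0.0316). Without replicate 3 of knockout CCl4 the 8 amplified genes had interaction values of -4.07 for Hsd3b5 and 2.50 to 6.56 for the 7 that rose, and of the 8 only Gsta1 stayed called by edgeR (adjusted p = 0.0320), with adjusted p of 0.0590 to 0.110 for the other 7. Other libraries moved single values more: Hsd3b5 was at -6.19 without replicate 1 of knockout CCl4, and without replicate 2 of knockout untreated Ly6d was at 7.77 and Cyp2a4 at 8.08.

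**Figure D2:**
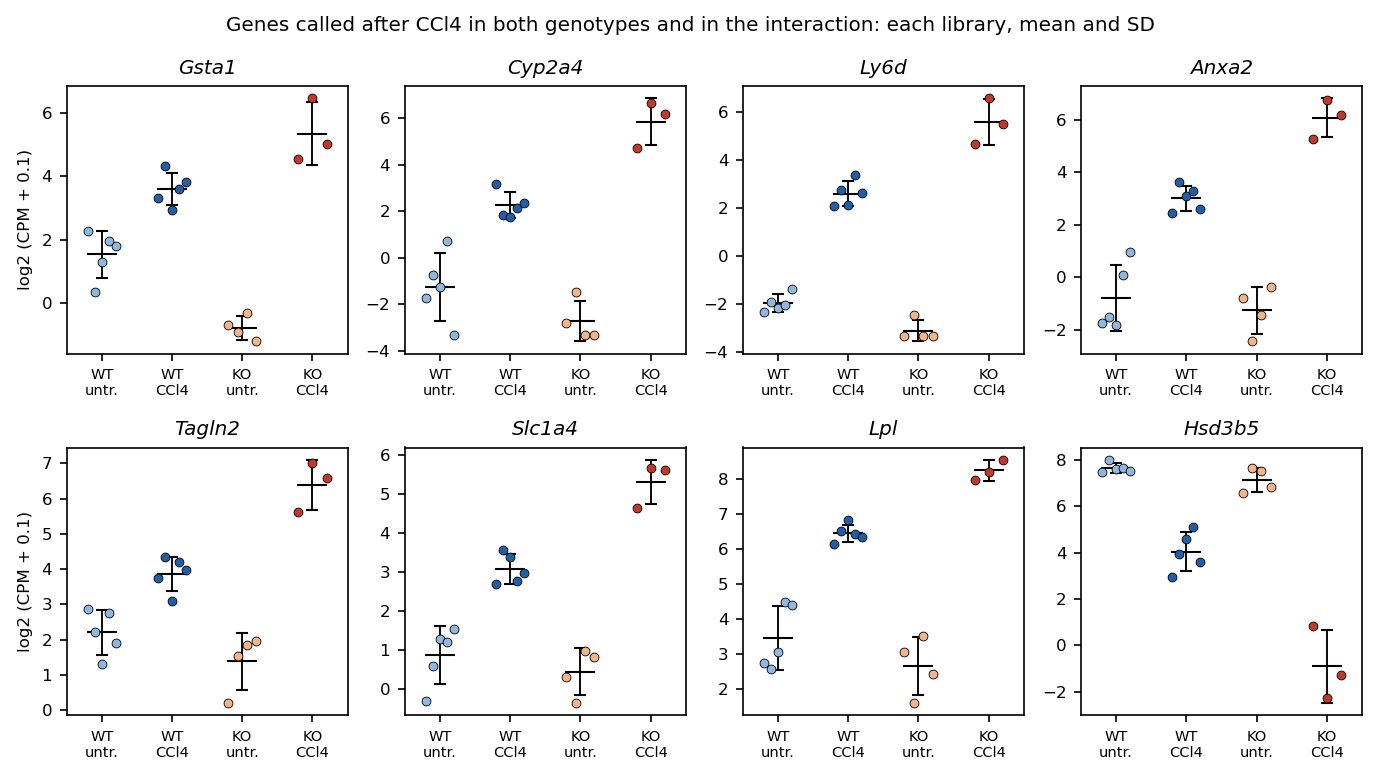
Level of the 8 amplified genes in each library (y axis, log2 of CPM plus 0.1, 1 point per library; x axis, the 4 groups), with the mean as a horizontal line and the SD as the bar. In 7 panels the 3 knockout CCl4 libraries sit above the other 14, and in the Hsd3b5 panel they sit below the other 14.

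One gene was lost. Slu7 (chr11:43433744-43447981) encodes a splicing factor. Slu7 was at 12.1, 14.1, 14.6, 13.3 and 10.7 CPM in the wild type untreated libraries, 27.8, 25.97, 25.05, 16.8 and 26.7 in wild type CCl4, 30.4, 25.4, 21.4 and 19.6 in knockout untreated and 14.8, 22.7 and 18.3 in knockout CCl4. It rose after CCl4 in wild type (0.91 ± 0.17, adjusted p = 0.0161), while the knockout value was -0.38 ± 0.21 (adjusted p = 0.231). The untreated knockout was already higher than untreated wild type (0.90, adjusted p = 0.0186), at the level that wild type had after CCl4, and after CCl4 the genotypes overlapped. The interaction was -1.30 ± 0.27 (adjusted p = 0.0431), and it was called in 5 of 17 fits with 1 library left out.

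No gene was called in opposite directions in the 2 genotypes by edgeR with TMM scaling or by DESeq2, and 2 were with scaling by library totals alone. The called genes nearest to that pattern among those named were Xlr3a, an X-linked gene of the lymphocyte-regulated family, and Gm2788, a processed transcript. Xlr3a was at 1.21, 2.58, 5.03, 1.400 and 3.98 CPM in the wild type untreated libraries, 4.74, 9.39, 2.71, 12.4 and 10.7 in wild type CCl4, 13.5, 8.900, 15.2 and 7.29 in knockout untreated and 0.717, 2.07 and 0.394 in knockout CCl4. Gm2788 was at 4.74, 6.67, 11.2, 9.29 and 7.95 CPM in the wild type untreated libraries, 12.2, 14.7, 14.7, 14.1 and 22.2 in wild type CCl4, 7.73, 6.25, 18.1 and 11.7 in knockout untreated and 3.95, 1.25 and 2.13 in knockout CCl4. In both, wild type CCl4 lay mostly above wild type untreated while all 3 knockout CCl4 libraries lay below every knockout untreated library. Xlr3a had 1.48 ± 0.49 in wild type (adjusted p = 0.171) and -3.33 ± 0.66 in the knockout (adjusted p = 0.00245), with an interaction of -4.81 ± 0.82 (adjusted p = 0.0316). Gm2788 had 0.96 ± 0.33 (adjusted p = 0.179) and -2.18 ± 0.43 (adjusted p = 0.00237), with an interaction of -3.14 ± 0.54 (adjusted p = 0.0316). Xlr3a has near-identical copies on the X chromosome, so its reads may be split among them. The MHC class I gene H2-Q1 had the same signs without passing the test of the interaction. It rose in wild type (2.18, adjusted p = 0.0364), was at -0.34 in the knockout, and its interaction was -2.52 ± 0.75 (adjusted p = 0.0952).

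The genes that fell in the knockout and were not called in wild type included enzymes and transporters of differentiated hepatocytes. Cyp2c23 (chr19:44005022-44029208) encodes an arachidonic acid epoxygenase. Cyp2c23 was at 447, 547, 301, 406 and 330.1 CPM in the wild type untreated libraries, 301, 380.1, 301, 328 and 322 in wild type CCl4, 360.1, 326, 248 and 341 in knockout untreated and 93.5, 68.2 and 67.9 in knockout CCl4. The 3 knockout CCl4 libraries lay far below the other 14, which overlapped. The knockout change was -2.06 ± 0.22 against -0.32 ± 0.17 in wild type, an interaction of -1.74 ± 0.27 (adjusted p = 0.0278), which stayed called in 11 of 17 fits with 1 library left out. Kcnn2 encodes a calcium-activated potassium channel. Kcnn2 was at 26.4, 24.7, 26.1, 28.96 and 23.3 CPM in the wild type untreated libraries, 31.3, 29.2, 30.6, 28.3 and 30.5 in wild type CCl4, 45.4, 36.6, 41.7 and 46.3 in knockout untreated and 25.1, 15.1 and 12.6 in knockout CCl4. Kcnn2 was higher in the untreated knockout than in wild type (0.71, adjusted p = 0.0435) and lower after CCl4 (-0.77, adjusted p = 0.0116), with an interaction of -1.49 ± 0.24 (adjusted p = 0.0316).

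Adh6-ps1 (chr3:138374121-138395002), a transcribed pseudogene of the alcohol dehydrogenase cluster, had the smallest interaction p. Adh6-ps1 was at 14.7, 15.4, 18.8, 17.02 and 33.7 CPM in the wild type untreated libraries, 16.8, 14.1, 22.2, 18.2 and 21.6 in wild type CCl4, 2.99, 4.45, 5.11 and 2.93 in knockout untreated and 0.359, 0.0358 and 0.315 in knockout CCl4. The knockout was lower than wild type without injury (-2.36, adjusted p = 9.63e-04) and lower again after CCl4 (-6.44, adjusted p = 2.37e-06), whereas the wild type groups overlapped. The knockout CCl4 libraries held 11 counts of it in all. The interaction was -4.08 ± 0.59 (adjusted p = 0.0204), called in 12 of 17 fits with 1 library left out. Reads of a pseudogene can be shared with its parent genes.

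Conjugating enzymes gave 4 of the 41 genes below. The 21 tested sulfotransferases and UGTs attach sulfate or glucuronic acid to steroids, bile acids and drugs. Of these, 4 were called, all with a knockout effect below that of wild type: Ugt3a1, Ugt2b1, Sult2a7 and Sult2a8. The median interaction of the list was -0.91, beside 0.04 over all genes tested. Without replicate 3 of knockout CCl4 the list median was -0.75 and no member was called. With 1 library left out in turn, Ugt3a1 and Sult2a7 were called in 5 of 17 fits, and Ugt2b1 and Sult2a8 in 1. Ugt3a1 was at 74.7, 70.3, 104, 82.99 and 70.5 CPM in the wild type untreated libraries, 64.5, 87.7, 104, 61.8 and 54.2 in wild type CCl4, 59.4, 77.3, 67.3 and 78.3 in knockout untreated and 27.03, 9.98 and 12.1 in knockout CCl4. The other 3 groups overlapped for Ugt3a1, and its interaction was -1.997 ± 0.39 (adjusted p = 0.0382). Ugt2b1 was at 477, 475, 496, 491 and 492 CPM in the wild type untreated libraries, 217, 289, 318, 341 and 254 in wild type CCl4, 395, 395, 597 and 572 in knockout untreated and 147, 105 and 63.01 in knockout CCl4. Ugt2b1, also male-biased, was lower in wild type CCl4 than in wild type untreated in every library, but that change was not called (-0.78, adjusted p = 0.0861), and its interaction was -1.44 ± 0.31 (adjusted p = 0.0441). Sult2a7 was at 0.1196, 0 and 0.158 CPM in knockout CCl4, 4 counts in all, and at 0.714 to 1.27 CPM in knockout untreated (interaction -4.04 ± 0.86, adjusted p = 0.0431). Sult2a8, the fourth called member and outside the 3 named by rule, averaged 524 ± 107, 397 ± 98.3 and 489 ± 109.6 CPM in wild type untreated, wild type CCl4 and knockout untreated (mean ± SD, n = 5, 5 and 4) and was at 107, 14.4 and 14.5 CPM in knockout CCl4 (interaction -3.03 ± 0.69, adjusted p = 0.0463). The Sult2a genes are a cluster of close copies, so their reads may be split.

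Other hepatocyte functions contributed single genes. Of 10 tested Slc22 transporters, which carry organic anions and cations, Slc22a30 and Slc22a28 were called. Each was called in 2 of 17 fits with 1 library left out. The list median was -0.18, and without replicate 3 of knockout CCl4 it was 0.14 with no member called. Slc22a30 was at 74.5, 42.4 and 39.1 CPM in knockout CCl4 against 153 to 198 in knockout untreated (interaction -1.23 ± 0.27, adjusted p = 0.0443). Slc22a28 was at 1.196, 0 and 0.0788 CPM against 13.5 to 21.7 (interaction -3.86 ± 0.90, adjusted p = 0.0492). Amdhd1 encodes an enzyme of histidine breakdown and was the 1 called member of 30 genes of the urea cycle and amino acid catabolism. Amdhd1 was at 242, 272, 312, 283 and 221 CPM in the wild type untreated libraries, 231, 247, 185, 241 and 185 in wild type CCl4, 219.7, 318, 247 and 256 in knockout untreated and 115, 73.5 and 61.8 in knockout CCl4. Its interaction was -1.35 ± 0.27 (adjusted p = 0.0407). Pigr, the receptor that carries IgA into bile, was the 1 called member of 21 periportal genes. Pigr was at 1504, 1269, 2031, 1353 and 1609 CPM in the wild type untreated libraries, 1386, 1425, 1458, 1483 and 1335 in wild type CCl4, 1147, 1419, 1261 and 1315 in knockout untreated and 656, 442 and 358 in knockout CCl4. Its interaction was -1.27 ± 0.26 (adjusted p = 0.0407). F13b, the carrier subunit of coagulation factor XIII, was the 1 called member of 29 complement and coagulation genes, at 117, 136 and 74.5 CPM in knockout CCl4 and 171 to 200.2, 165 to 262 and 181 to 207 in wild type untreated, wild type CCl4 and knockout untreated. With 1 library left out in turn, Amdhd1 and Pigr were called in 4 of 17 fits and F13b in 2.

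A further pattern within the 41 genes was seen after their values were known. Besides Slu7 and Kcnn2, the 4 genes Glo1, Asic5, Hsd3b2 and Meiob were called higher in the untreated knockout than in untreated wild type, and none of these 4 differed at adjusted p under 0.05 after CCl4. Asic5, an acid-sensing ion channel gene, averaged 2.82 ± 1.002, 4.16 ± 0.634 and 41.2 ± 20.8 CPM in wild type untreated, wild type CCl4 and knockout untreated, and was at 13.8, 3.36 and 4.17 in knockout CCl4 (interaction -3.10 ± 0.61, adjusted p = 0.0382). Glo1, the glyoxalase that clears methylglyoxal, averaged 252 ± 39.3, 227 ± 46.3 and 507 ± 85.7 CPM, and was at 223, 146 and 195 in knockout CCl4 (interaction -1.27 ± 0.27, adjusted p = 0.0431). Hsd3b2, a hydroxysteroid dehydrogenase with close relatives in its cluster, averaged 82.8 ± 30.9, 59.7 ± 10.9 and 283 ± 74.8 CPM, and was at 56.6, 16.9 and 27.6 in knockout CCl4 (interaction -2.60 ± 0.48, adjusted p = 0.0316). Meiob, a meiosis gene, averaged 4.46 ± 1.02, 3.603 ± 0.833 and 13.3 ± 4.48 CPM, and was at 3.71, 3.58 and 2.60 (interaction -1.69 ± 0.38, adjusted p = 0.0454). Among 17 fits with 1 library left out, the interaction was called in 6 for Hsd3b2, 4 for Asic5 and 2 each for Glo1 and Meiob. All 4 lost the call by edgeR without replicate 3 of knockout CCl4 (adjusted p = 0.0821 to 0.121).

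**Figure D3:**
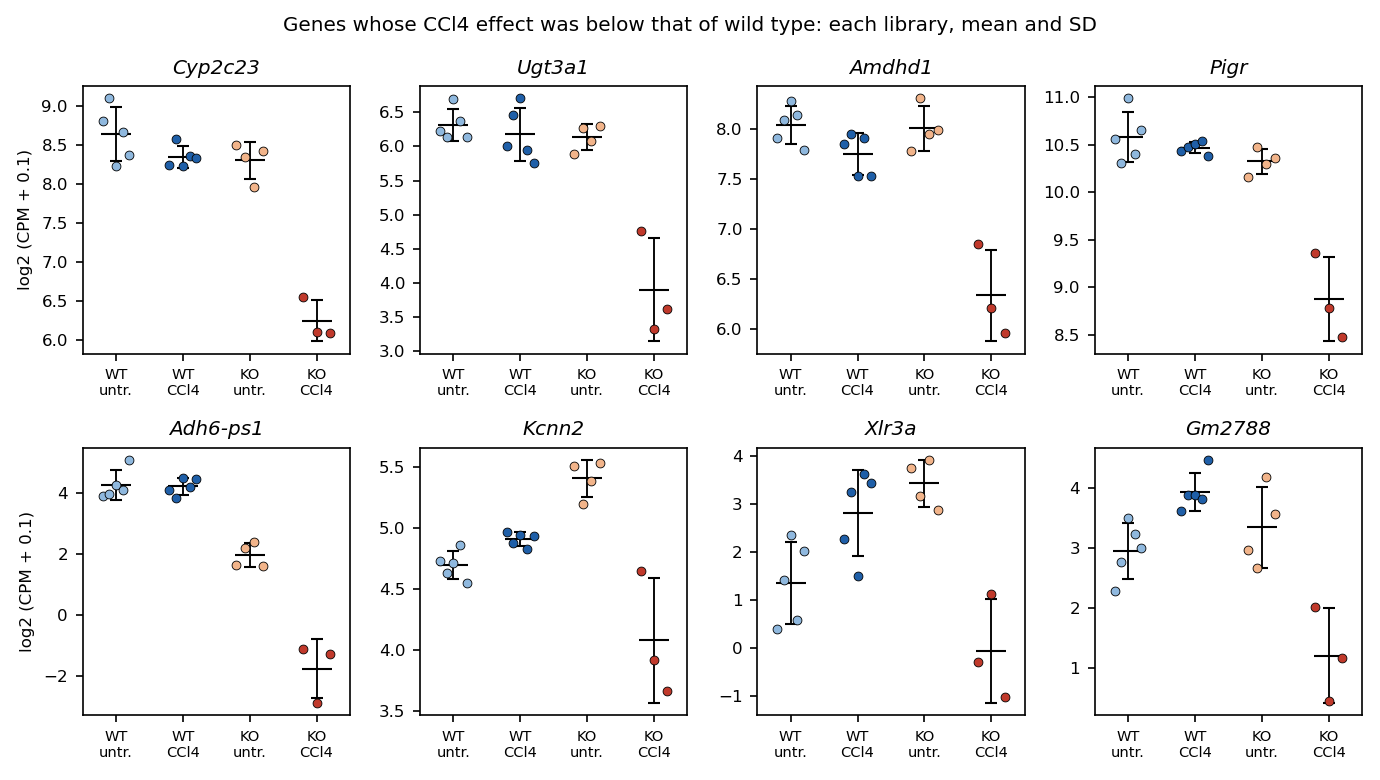
Level of 8 genes whose CCl4 effect was lower in the knockout than in wild type (y axis, log2 of CPM plus 0.1, 1 point per library; x axis, the 4 groups), with the mean as a horizontal line and the SD as the bar. In the Kcnn2 and Xlr3a panels the knockout CCl4 libraries overlap untreated wild type, and in the other panels all 3 lie below the other 14 libraries.

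Cell cycle genes rose after CCl4 in the knockout. Of 32 tested genes of mitosis and cytokinesis, CCl4 raised 31 in the knockout, and 10 were called in the interaction and all 10 were above (Pbk, Top2a, Aurkb, Ncaph, Anln, Plk1, Ect2, Cdc20, Bub1b and Kif23). All 32 had a positive value and all 32 an unadjusted p under 0.05. Their median interaction was 5.59, from a median CCl4 effect of 0.17 in wild type and 5.96 in the knockout. The median difference between genotypes was -3.29 without injury, where no member was called, and 2.26 after CCl4, where 5 were. Of 29 genes of S phase and DNA replication, 3 were called above (Mcm2, Mcm5 and Chaf1a), with a median of 1.26. Of 18 G1 cyclins, CDKs and inhibitors, 1 was called, E2f1, the transcription factor that opens S phase.

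The summed mitosis genes were at 14.8, 14.8, 44.7, 95.7 and 574 CPM in the wild type untreated libraries, 294, 157, 204, 120.0 and 111 in wild type CCl4, 19.01, 17.3, 19.8 and 14.99 in knockout untreated and 422, 1580.5 and 398 in knockout CCl4. The wild type untreated libraries spread widely, and the highest of them, replicate 5, exceeded all 5 wild type CCl4 libraries and 2 of the 3 knockout CCl4 libraries. Without that replicate the median interaction of the 32 genes was 4.00 and their median wild type effect 1.95. Without replicate 3 of knockout CCl4 the median was 5.89. The 10 calls were lost in both fits: edgeR called 0 of the 32, although all 32 stayed positive at an unadjusted p under 0.05. It also called 0 with library totals alone (32 at an unadjusted p under 0.05), limma voom called 0 (24 unadjusted) and DESeq2 called 24.

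Top2a encodes the topoisomerase that untangles replicated chromosomes. Top2a was at 0.101, 0.417, 2.07, 4.72 and 10.2 CPM in the wild type untreated libraries, 6.98, 4.48, 7.24, 4.88 and 4.14 in wild type CCl4, 0.2195, 0.257, 0.4397 and 0.6701 in knockout untreated and 14.7, 38.8 and 20.2 in knockout CCl4. Within untreated wild type it ran from 0.101 to 10.2 CPM, so that group spanned every wild type CCl4 and knockout untreated library, and only knockout CCl4 stood above it. Its interaction was 5.33 ± 1.13 (adjusted p = 0.0431), and 4.41 without replicate 5 of wild type untreated. Aurkb, the kinase of the chromosomal passenger complex, was at 0.504, 0.667, 0.188, 1.47 and 8.31 CPM in wild type untreated and 2.93, 12.3 and 4.57 in knockout CCl4 (interaction 6.79 ± 1.47, adjusted p = 0.0431, 5.14 without replicate 5 of wild type untreated). Pbk, a mitotic kinase, was at 0.0878, 0, 0.1099 and 0 CPM in knockout untreated and 5.56, 24.1 and 4.73 in knockout CCl4 (interaction 6.56 ± 1.36, adjusted p = 0.0431, 5.496 without replicate 5 of wild type untreated).

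The replication genes had smaller and less variable values, but their calls also depended on single libraries. Without replicate 3 of knockout CCl4 the adjusted p was 0.0798 for Mcm2, 0.103 for Mcm5, 0.0709 for Chaf1a and 0.0920 for E2f1. No S-phase gene was called by edgeR without replicate 5 of wild type untreated or with library totals alone. By limma voom none was called, and by DESeq2 12. With 1 library left out in turn, Mcm2 was called in 5 of 17 fits, Chaf1a and E2f1 in 4, and Mcm5 in 3. Mcm2 and Mcm5 encode subunits of the helicase that unwinds DNA at replication forks, and Chaf1a a histone chaperone that follows the fork. Mcm2 was at 1.21, 1.67, 1.88, 3.17 and 2.46 CPM in the wild type untreated libraries, 4.18, 2.52, 2.43, 2.49 and 2.83 in wild type CCl4, 1.27, 0.599, 0.879 and 1.26 in knockout untreated and 4.42, 12.6 and 9.69 in knockout CCl4. Every knockout CCl4 library was above every other library for Mcm2, and its interaction was 2.67 ± 0.52 (adjusted p = 0.0382). Mcm5 was at 1.01, 0.917, 1.82, 1.695 and 3.903 CPM in the wild type untreated libraries, 5.67, 2.395, 2.82, 3.07 and 2.13 in wild type CCl4, 0.659, 1.63, 1.37 and 1.42 in knockout untreated and 8.31, 22.5 and 15.8 in knockout CCl4. Its interaction was 2.86 ± 0.64 (adjusted p = 0.0454). Chaf1a was at 2.03, 6.94 and 1.97 CPM in knockout CCl4 and 0.171 to 0.503 in knockout untreated (interaction 3.66 ± 0.82, adjusted p = 0.0443). E2f1 was at 3.53, 3.92, 3.02, 2.73 and 3.76 CPM in the wild type untreated libraries, 4.302, 3.78, 3.35, 4.68 and 5.03 in wild type CCl4, 1.71, 1.97, 1.87 and 2.09 in knockout untreated and 5.08, 7.402 and 7.88 in knockout CCl4. E2f1 was lowest in knockout untreated and highest in knockout CCl4, with an interaction of 1.51 ± 0.31 (adjusted p = 0.0431).

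Promoter sequence is shown for 4 of these genes because they moved together and 2 short elements are known to time such genes: the CHR element (TTTGAA), through which G2 and M phase genes are repressed in resting cells, and the E2F element (TTTCCCGC, TTTGGCGC or TTTCGCGC) of genes of the G1 to S transition. The sequences are the 200 bases before the RefSeq start in GRCm38.p6, the assembly of mm10, read 5′ to 3′ on the gene's strand, with matches on either strand in capitals. Mcm2 is at chr6:88898781-88898980 (minus strand), Mcm5 at chr8:75109309-75109508 (plus), Cdc20, chosen after its values were seen, at chr4:118437344-118437543 (minus) and Top2a at chr11:99024190-99024389 (minus).
Mcm2: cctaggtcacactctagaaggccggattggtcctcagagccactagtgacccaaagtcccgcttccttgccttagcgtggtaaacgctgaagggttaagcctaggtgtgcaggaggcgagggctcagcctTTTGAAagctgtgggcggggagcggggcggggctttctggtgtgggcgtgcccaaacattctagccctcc
Mcm5: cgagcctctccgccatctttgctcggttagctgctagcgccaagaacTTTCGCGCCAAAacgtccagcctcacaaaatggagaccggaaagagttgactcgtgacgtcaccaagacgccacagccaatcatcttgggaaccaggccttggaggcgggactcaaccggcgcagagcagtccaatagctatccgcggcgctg
Cdc20: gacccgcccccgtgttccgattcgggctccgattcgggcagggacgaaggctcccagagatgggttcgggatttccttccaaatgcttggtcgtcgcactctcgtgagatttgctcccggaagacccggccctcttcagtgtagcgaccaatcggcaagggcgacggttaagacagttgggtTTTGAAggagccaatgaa
Top2a: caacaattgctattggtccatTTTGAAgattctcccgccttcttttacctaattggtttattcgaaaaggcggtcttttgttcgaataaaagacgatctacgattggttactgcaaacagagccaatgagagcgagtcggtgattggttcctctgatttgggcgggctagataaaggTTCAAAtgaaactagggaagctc
The CHR letters begin 70 bases before the start in Mcm2, 18 in Cdc20, and 179 and 23 in Top2a, the last on the opposite strand. In Mcm5 overlapping E2F matches on the 2 strands begin 153 and 149 bases before the start.

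Over windows of 250 bases before to 50 after the start, both strands, CHR letters stood in 8 of 12 called cell cycle genes with a RefSeq window (66.7%), in 41.3% of the 63 tested genes of the same lists, in 14.9% of the 9964 tested genes with a window and in 17.9% of all 32851 windows. E2F letters stood in 1 of the 12 (8.33%), 23.8% of the 63, 3.98% of tested genes and 1.84% of windows. The TEAD letters GGAATG stood in 7 of 86 genes called above (8.14%), 4 of 31 called below (12.9%), 14.4% of tested genes and 14.7% of windows. A match is a description of letters and not a site of binding.

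Single genes of stress responses were called above. CCl4 raised 9 of 28 genes of the NRF2 antioxidant response in the knockout, beside 12.1% of all genes tested, and 6 of the 28 without replicate 3 of knockout CCl4. Srxn1, the sulfiredoxin that repairs oxidized peroxiredoxins and a textbook NRF2 target, was the 1 of the 28 called in the interaction. The median interaction of the list was 0.41, and 0.20 without replicate 3 of knockout CCl4. Srxn1 was at 22.3, 27.6, 32.7, 52.5 and 27.2 CPM in the wild type untreated libraries, 40.5, 37.4, 28.04, 35.6 and 34.5 in wild type CCl4, 22.2, 18.8, 21.1 and 20.6 in knockout untreated and 71.5, 199 and 43.3 in knockout CCl4. Replicate 2 of knockout CCl4 carried much of the difference, and the interaction of 2.22 ± 0.49 (adjusted p = 0.0441) was 1.35 without it. Ucp2, a mitochondrial carrier, is on none of the gene lists of stress responses and was named by its interaction p. Ucp2 was at 4.74, 3.59, 3.02, 10.8 and 9.54 CPM in the wild type untreated libraries, 15.1, 8.38, 12.1, 13.5 and 20.4 in wild type CCl4, 1.93, 0.856, 0.879 and 1.26 in knockout untreated and 25.4, 46.95 and 201 in knockout CCl4. Its interaction was 5.04 ± 0.80 (adjusted p = 0.0316), and 3.71 without replicate 3 of knockout CCl4. Lcn2, the siderophore-binding lipocalin of the acute-phase response, was at 95.2, 6.24, 28.3, 25.3 and 31.5 CPM in wild type CCl4 and 135, 358 and 825 in knockout CCl4 (interaction 5.02 ± 1.12, adjusted p = 0.0443, 4.19 without replicate 3), the 1 called member of 26 acute-phase genes.

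Of 24 tested epithelial injury genes, 4 were called, all above (Ly6d, Anxa2, Cd44 and Lgals3), 23 had a positive value, and 17 were above at an unadjusted p under 0.05. The median interaction was 2.12, from 1.23 in wild type and 3.75 in the knockout, where CCl4 raised 6 and 18 members. Without replicate 3 of knockout CCl4 it was 1.61. Cd44, the hyaluronan receptor, was at 3.41, 7.795 and 35.5 CPM in knockout CCl4 and no higher than 1.47 in any other library (interaction 6.12 ± 1.29, adjusted p = 0.0431, 4.67 without replicate 3). Cd44 and Lgals3 are also expressed by macrophages.

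Genes of macrophages and of antigen presentation made up a further block of the knockout-only rises, and in these replicate 3 of knockout CCl4 was far above the others. Of 13 tested recruited macrophage markers, 5 were called (Mmp12, Trem2, Ccr2, Cx3cr1 and Lgals3), of 14 Kupffer cell markers 1 (Csf1r), of 7 dendritic and MHC class II markers 4 (H2-Ab1, H2-Aa, H2-DMa and Cd74), and of 15 stellate and myofibroblast markers 1 (Col4a1). All 11 were above. None of 20 endothelial markers was called by edgeR and 1 by DESeq2, and 4 were above at an unadjusted p under 0.05. Trem2 is a lipid-sensing receptor of macrophages that gather at injured sites. Trem2 was at 2.12, 3.17, 0.942, 1.33 and 0.506 CPM in the wild type untreated libraries, 1.12, 1.702, 1.32, 1.12 and 1.200 in wild type CCl4, 0.922, 0.856, 0.769 and 1.34 in knockout untreated and 5.98, 10.7 and 200.1 in knockout CCl4. All 3 knockout CCl4 libraries were above the other 14. Its interaction was 6.51 ± 1.20 (adjusted p = 0.0316), and 3.41 without replicate 3. Mmp12, the macrophage elastase, was at 7.47, 26.6 and 338 CPM in knockout CCl4 and at 1.51 to 2.44 in wild type CCl4 (interaction 6.32 ± 1.12, adjusted p = 0.0316, 3.45 without replicate 3).

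Csf1r, the receptor for macrophage colony-stimulating factor, was at 2.81, 4.35, 1.46, 9.904 and 5.303 CPM in wild type CCl4 and 13.3, 37.5 and 422 in knockout CCl4 (interaction 6.49 ± 1.40, adjusted p = 0.0431, 3.84 without replicate 3). Ccr2, the chemokine receptor of recruited monocytes, held 3 counts in knockout untreated and 296 in knockout CCl4, a ratio of 111 with an exact 95% counting interval of 37.6 to 542 that covers counting error only. Replicate 3 held 190 of the 296 counts, and without it the ratio was 51.1 (17.01 to 252) and the fitted interaction went from 7.15 to 5.56. H2-Ab1 and H2-Aa, the chains of an MHC class II molecule, were at 4.54, 9.65 and 132 and 4.19, 7.22 and 125 CPM in knockout CCl4, with interactions of 6.53 ± 1.41 (adjusted p = 0.0431) and 6.24 ± 1.36 (adjusted p = 0.0441) that were 3.71 and 3.21 without replicate 3. H2-DMa, which loads peptides onto class II molecules, was at 0.897, 1.64 and 25.5 CPM (interaction 6.88 ± 1.54, adjusted p = 0.0443, 4.02 without replicate 3). Col4a1, a basement membrane collagen chain, was at 1.41, 5.82, 6.98 and 8.63 CPM in knockout untreated and 28.4, 30.6 and 80.03 in knockout CCl4, and at 13.7 to 32.5 CPM in the wild type groups (interaction 2.74 ± 0.61, adjusted p = 0.0443, 2.10 without replicate 3).

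Nlrp3, the sensor of the inflammasome, and Adcy7, an adenylate cyclase, were named by their interaction p. Nlrp3 had 0 counts in the 4 knockout untreated libraries and 463 in knockout CCl4, where it was at 0.897, 0.9297 and 33.2 CPM. Against a floor of 3 counts over the group it was at least 174-fold higher, and its fitted interaction of 12.46 depends on the prior count. Replicate 3 held 422 of the 463 counts, and without it the gene was at least 19.8-fold higher and the fitted value 8.82. Adcy7 was at 1.32, 3.58 and 30.9 CPM in knockout CCl4 and at most 0.387 in any other library (interaction 6.84 ± 1.20, adjusted p = 0.0316, 4.57 without replicate 3). Hexa, a lysosomal hexosaminidase and the 1 called member of 28 lysosomal genes, was at 36.8, 46.5 and 137 CPM (interaction 2.26 ± 0.44, adjusted p = 0.0382, 1.44 without replicate 3). Chosen after their values were seen, the cytokine Il1b was at 2.69, 1.61 and 130 CPM in knockout CCl4 and the chemokine Cxcl2 at 4.90, 2.93 and 199.

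The recruited macrophage list summed to 14.01, 23.3, 17.8, 42.8 and 43.9 CPM in the wild type untreated libraries, 83.5, 86.4, 59.4, 90.6 and 67.9 in wild type CCl4, 24.9, 65.8, 31.99 and 32.4 in knockout untreated and 146, 254 and 2887 in knockout CCl4. Summed Kupffer cell markers were at 97.8 to 137, 99.8 to 187, 145 to 173 and 183, 337 and 3975 CPM in the same order. For both lists replicate 3 of knockout CCl4 lay more than 5 times above any other library, and for recruited macrophage markers the other 2 knockout CCl4 libraries also lay above the remaining 14. The pan-leukocyte gene Ptprc was at 2.15 to 49.9 CPM in knockout CCl4 and at most 0.927 elsewhere. Median interactions were 6.51 for recruited macrophage, 5.50 for Kupffer cell, 6.24 for class II, 3.01 for stellate and 1.39 for endothelial markers, and without replicate 3 they were 3.45, 1.86, 3.21, 1.76 and -0.15. With the 1 recruited macrophage marker that was at 0 in a group set to the floor, the first median was 6.32. In sorted bulk samples, more cells of a type and more RNA per cell cannot be told apart, and the part of other cells in these rises was not tested.

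**Figure D4:**
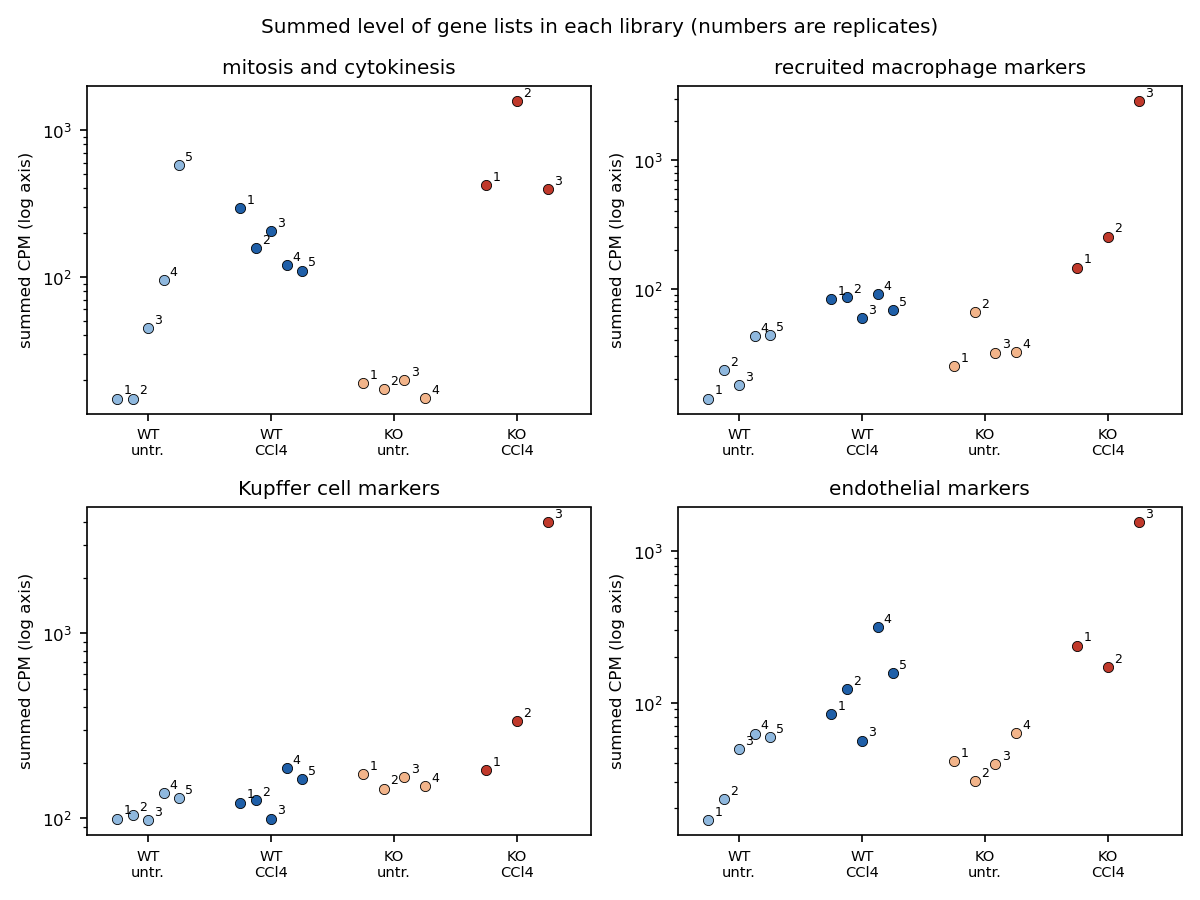
Summed CPM of 4 gene lists in each library (y axis, log scale; x axis, the 4 groups; the number beside a point is the replicate). Replicate 3 of knockout CCl4 stands at 3975 CPM for Kupffer cell markers and 2887 for recruited macrophage markers, and replicate 5 of wild type untreated stands at 574 CPM for mitosis genes.

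Replicate 3 of knockout CCl4 was more than 5 times the mean of replicates 1 and 2 in 42 of the 109 genes above. It was the highest of all 17 libraries in 58 of the 109, replicate 2 in 50 and replicate 1 in 1. Without it, all 109 kept a positive value, which choosing them by the interaction in the same libraries favours. Their median went from 5.55 to 3.90, and the median of the 41 below went from -1.64 to -1.48. With replicate 5 of wild type untreated left out as well, the medians were 3.64 and -1.39.

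Several programmes of the differentiated hepatocyte leaned towards a lower CCl4 effect in the knockout, with few calls. Of 23 male-biased liver genes, which follow pulsatile growth hormone, Hsd3b5 and Ugt2b1 were called, 22 had a negative value and the median was -1.55 (-1.18 without replicate 3 of knockout CCl4). Both genotypes moved the same way, with medians of -1.10 in wild type and -2.64 in the knockout and 3 and 18 members called lower. Major urinary protein genes, male-biased pheromone carriers, had none of 21 members called by edgeR (4 below and 1 above at an unadjusted p under 0.05, and 2 below and 1 above by DESeq2) and a median of -1.47, from -2.60 in wild type and -4.10 in the knockout. The member with the smallest p, Mup18, had -2.94 ± 0.78 (adjusted p = 0.0683), and reads of these close copies may be split. Of 15 female-biased genes 1 was called above (Cyp2a4), with a median of 1.26 (0.70 without replicate 3 of knockout CCl4, and 0.23 to 1.92 with each library left out in turn).

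Of 27 hepatocyte identity genes none was called by edgeR, 1 by DESeq2, 8 were below at an unadjusted p under 0.05 and the median was -0.39, with Tdo2, the first enzyme of tryptophan breakdown, nearest to a call (-1.47 ± 0.36, adjusted p = 0.0578). Periportal genes had a median of -0.89 with 10 of 21 below at an unadjusted p under 0.05, urea cycle and amino acid genes -0.66 with 12 of 30, and pericentral genes 0.54 with none below. Bile acid genes had a median of -0.55 and no call by edgeR (5 of 21 below at an unadjusted p under 0.05, 2 by DESeq2). Among them the bile acid importer Slc10a1 had -1.37 ± 0.41 (adjusted p = 0.0982). For fatty acid oxidation and PPARA targets the medians were 0.29 in wild type and -0.24 in the knockout, with an interaction median of -0.48 and no call by edgeR (8 below and 1 above of 30 at an unadjusted p under 0.05, 1 below by DESeq2). The nearest member, Hadhb of the mitochondrial trifunctional protein, had -0.93 ± 0.25 (adjusted p = 0.0663).

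Genes tied to YAP and TAZ themselves gave no call by edgeR. Of 18 tested YAP/TAZ-TEAD targets none was called by edgeR and 4 were called above by DESeq2, with 5 above and 2 below at an unadjusted p under 0.05, and the median of 0.08 changed sign with the scaling of the libraries (-0.18 to 0.11) and was -0.23 without replicate 3 of knockout CCl4. The member with the smallest p was Myof, a membrane repair gene, at 1.14, 4.18 and 24.5 CPM in knockout CCl4 and at most 0.634 elsewhere (7.06 ± 1.66, adjusted p = 0.0512). Of 24 Hippo kinases and partners none was called by edgeR (2 above by DESeq2, and 2 above and 2 below at an unadjusted p under 0.05), and Amotl1, a junctional angiomotin, came nearest (2.46 ± 0.68, adjusted p = 0.07904). Interferon-stimulated genes had no call by edgeR among 25 (2 above by DESeq2, 5 at an unadjusted p under 0.05) and a median of 0.83 (0.43 without replicate 3 of knockout CCl4). The 15 mitochondrially encoded genes had no call by edgeR and 3 by DESeq2, 13 above at an unadjusted p under 0.05 and a median of 2.76, which was 1.08 without replicate 3 of knockout CCl4 and 0.46 without that library and replicate 5 of wild type untreated.

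The genes that CCl4 changed in wild type mostly went the same way in the knockout, a comparison of groups that share no library. Of the 117 genes called in wild type, 112 had the same sign in the knockout (95.7%), 99 were called in the same direction (84.6%) and 0 in the opposite direction. Over all genes tested, CCl4 in the knockout gave 12.1% called higher and 6.96% called lower. Among the 117, the 79 that rose had medians of 2.52 in wild type and 3.52 in the knockout, and the 38 that fell had medians of -2.53 and -2.80. The knockout change was the larger in 71 of the 117 (60.7%), beside 66.7% of all genes tested. The interaction was called for 9 of the 117. The 99 shared genes were 3.79% of the 2610 called in the knockout. Of those 2610, 2173 had the same sign in wild type (83.3%). The share of same signs over all genes tested was not counted.

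The number of interaction calls depended on single libraries in every group. With 1 library left out at a time, edgeR called from 0 to 867 genes. It called none without wild type untreated replicate 4, wild type CCl4 replicate 4, wild type CCl4 replicate 5, knockout untreated replicate 1 or knockout untreated replicate 4, with 2152 to 2246 genes at an unadjusted p under 0.05 in those fits. It called 867 without knockout CCl4 replicate 1, 110 without replicate 2 and 11 without replicate 3. All 150 genes kept their sign in all 17 fits, which choosing them by the interaction in the same libraries favours. They were called in a median of 4 of the fits, and only Gsta1, Adh6-ps1, Cyp2c23 and Kcnn2 were called in 9 or more. On all 17 libraries DESeq2 called 783 genes, 137 of them among the 150, and limma voom called 9. Scaling by library totals alone called 28 genes, 60.7% of them above against 72.7% with TMM, and shifted the median of all genes from 0.04 to -0.16.

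**Figure D5:**
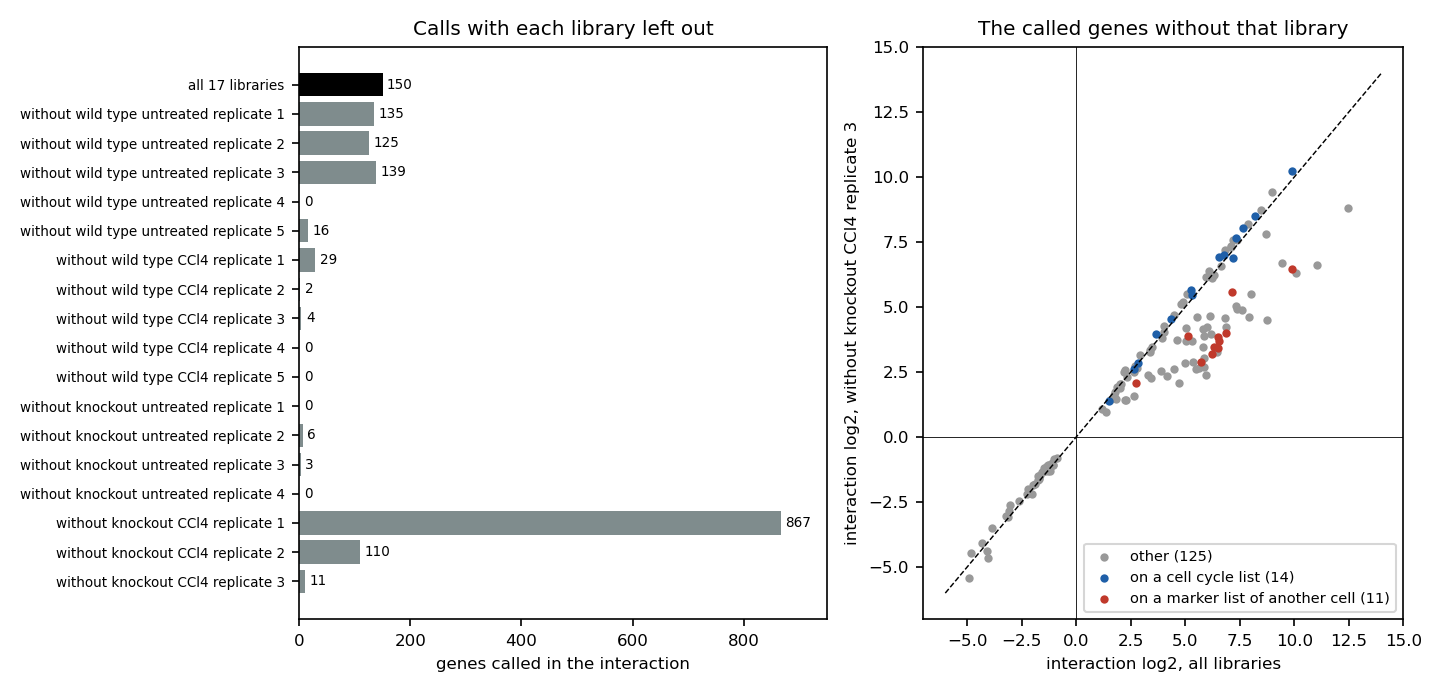
Left: number of genes called in the interaction (x axis) with all 17 libraries and with each library left out (y axis). Right: interaction log2 of the 150 called genes with all libraries (x axis) and without knockout CCl4 replicate 3 (y axis), coloured by list. Cell cycle genes lie on the line of equal values, while marker genes of other cells lie below it.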

How the data were processed

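The authors deposited raw read counts per gene, 23461 genes by 17 libraries, with Ensembl IDs and no normalization. STAR 2.4.1d and build mm10 are named in the submitters' processing notes, and the counter, its annotation and its strand setting were not given in the sources used here, so overlapping and antisense genes cannot be told apart. Symbols and positions came from GENCODE M21 (mm10) for 22914 genes.

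The deposited counts were fitted with edgeR 4.0.16 in R 4.3.3: TMM scaling, filterByExpr (minimum count 10, minimum total 15, leaving 13721 genes), 1 mean per group for all 17 libraries, and a robust quasi-likelihood F test of each contrast with Benjamini-Hochberg adjustment over all genes tested. Calls were at an adjusted p under 0.05. Values after ± are standard errors, and CPM use TMM-scaled totals. The script was tested on simulated data. Depth was 11266420 to 24775863 counts per library. Counting intervals are exact, from pooled counts.

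The design, the classes and 47 gene lists (1015 entries, 1003 matched by symbol) were chosen with earlier results of these data known. Named genes were Yap1 and Wwtr1, up to 5 per class and direction with the smallest p and a mean of at least 10 CPM in 1 group, and from each list up to 3 called members or else the 1 with the smallest p. One gene that this rule picked is not reported here. Alternatives were other scalings and filters, DESeq2 1.42.0, limma 3.58.1 (voom), a replicate block, and libraries left out. No columns of other samples were used. No 2 libraries of a group agreed within sampling noise: the lowest chi-square per gene over 29 pairs was 23.4.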

Additional observations from a re-analysis of the deposited data

Results flagged for a closer look

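The CCl4 effect differed between the genotypes for 150 genes by the test of the interaction itself, and 44 of these are named here. On the log2 scale the difference was above 0 for Nlrp3 (12.46), Ccr2 (7.15), H2-DMa (6.88), Adcy7 (6.84), Aurkb (6.79), Cyp2a4 (6.63), Pbk (6.56), H2-Ab1 (6.53), Trem2 (6.51), Csf1r (6.49), Mmp12 (6.32), H2-Aa (6.24), Cd44 (6.12), Ly6d (6.08), Top2a (5.33), Ucp2 (5.04), Lcn2 (5.02), Gsta1 (4.48), Anxa2 (4.02), Chaf1a (3.66), Tagln2 (3.40), Mcm5 (2.86), Slc1a4 (2.77), Col4a1 (2.74), Lpl (2.67), Mcm2 (2.67), Hexa (2.26), Srxn1 (2.22) and E2f1 (1.51). It was below 0 for Xlr3a (-4.81), Hsd3b5 (-4.33), Adh6-ps1 (-4.08), Sult2a7 (-4.04), Slc22a28 (-3.86), Gm2788 (-3.14), Ugt3a1 (-1.997), Cyp2c23 (-1.74), Kcnn2 (-1.49), Ugt2b1 (-1.44), Amdhd1 (-1.35), Slu7 (-1.30), Pigr (-1.27), Slc22a30 (-1.23) and F13b (-1.04). The value of Nlrp3 depends on the prior count, since the gene had 0 counts in knockout untreated, and Ly6d and Ccr2 had 1 and 3 counts in that group.

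Single libraries stood far from the rest of their group in 19 of 213 combinations of a named gene and a group of 4 or 5 libraries, judged by the gap to the nearest library as a share of the range, and chance alone gives about 1 in 20. In wild type untreated replicate 5, Adh6-ps1 was at 33.7 CPM (others 14.7 to 18.8), Aurkb at 8.31 (0.188 to 1.47), Gtse1 at 7.30 (0.503 to 1.81), Lcn2 at 25.5 (1.92 to 6.34) and mt-Nd3 at 3429 (440.1 to 1219). In replicate 4 of that group, Wwtr1 was at 18.9 CPM (9.86 to 12.1), Scd2 at 2.14 (0.314 to 0.578), Hk2 at 0.516 (0 to 0.0834) and Myof at 0.590 (0 to 0.126). In wild type CCl4 replicate 1, Mcm2 was at 4.18 CPM (2.43 to 2.83), Chaf1a at 2.06 (0.856 to 1.20), Mcm5 at 5.67 (2.13 to 3.07) and Lcn2 at 95.2 (6.24 to 31.5). Elsewhere in that group, H2-DMa was at 0.567 CPM in replicate 2 (0.107 to 0.195), Slu7 at 16.8 in replicate 4 (25.05 to 27.8) and Gm2788 at 22.2 in replicate 5 (12.2 to 14.7). In knockout untreated, Ly6d was at 0.0856 CPM in replicate 2 (0 in the others), Mmp14 at 21.1 in replicate 2 (16.9 to 17.5) and Myof at 0.0878 in replicate 1 (0 in the others). Where the other libraries are at 0, as for Ly6d and Myof in knockout untreated, any count passes this rule. The rate of 1 in 20 does not apply to such genes. Knockout CCl4, with 3 libraries, was not examined in this way.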

How the results depend on the processing

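With library totals alone in place of TMM, the counts were 28 interaction genes, 651 for CCl4 in wild type, 21 knockout-only, 5 amplified, 0 lost, 2 reversed, 11 with a wild type change the same way, 7 the opposite way and 8 on a gene list. Without a filter on low counts they were 33 interaction genes, 28 knockout-only, 5 amplified, 0 lost, 10 the same way, 7 the opposite way and 8 on a list, with more genes tested. DESeq2 gave 783 interaction genes, 494 for CCl4 in wild type, 328 between untreated genotypes, 682 knockout-only, 44 amplified, 1 damped, 21 lost, 35 called in neither genotype, 251 the same way, 102 the opposite way and 158 on a list. With limma voom there were 9 interaction genes, 9 knockout-only, 0 amplified, 0 lost, 1 the same way, 1 the opposite way and 2 on a list. With sample quality weights voom gave 2 interaction genes, 435 for CCl4 in wild type, 214 between untreated genotypes, 1031 between genotypes after CCl4, 2 knockout-only, 0 amplified, 0 lost, 0 the same way, 1 the opposite way and 0 on a list. At unadjusted p under 0.05 the 2 voom fits held 1915 and 1580 genes. Without the 2 libraries with the highest mitochondrial share there were 9 interaction genes, 187 for CCl4 in wild type, 555 between genotypes after CCl4, 6 knockout-only, 3 amplified, 0 lost, 3 the same way, 3 the opposite way and 5 on a list. A size of 1 log2 gave 22 the same way and 8 the opposite way. RLE (149), upper-quartile factors (140), a CPM filter (159) and leaving out mitochondrially encoded genes (145) kept the interaction count within 1.5 times of 150. The cause of these shifts was not tested.

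The labels say that replicate numbers do not pair samples, and 1 of 17 libraries correlated best with its own number (same-number correlations -0.302 to 0.231 over 22 pairs). A fit with the replicate block gave 3 interaction genes, 49 for CCl4 in wild type, 867 between genotypes after CCl4, 2 knockout-only, 1 amplified, 0 lost, 1 the same way, 0 the opposite way and 1 on a list.

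With 1 library left out the counts ran from 0 to 867 for the interaction, 63 to 179 for CCl4 in wild type, 1666 to 3079 for CCl4 in the knockout, 89 to 152 between untreated genotypes and 418 to 2216 between genotypes after CCl4. The classes ran from 0 to 816 knockout-only, 0 to 30 amplified, 0 to 3 lost, 0 to 1 damped, 0 to 18 in neither and 0 to 0 reversed. The wild type change went the same way in 0 to 243 genes and the opposite way in 0 to 98, and 0 to 185 genes were on a list. Cd4, called under no setting, ran from -0.91 to 0.65 and was above 0 in 8 of these fits (-0.05 with all libraries). None of the other genes picked by the naming rule and reported here changed sign under the settings run. Depth limited genes with 0 or 1 count in a group, such as Ly6d and Nlrp3, and DESeq2 gave Nlrp3 no adjusted p.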

Other observations

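The remaining gene lists held few calls. Of 24 p53 targets none was called by edgeR and 3 by DESeq2, with a median interaction of 0.64, and Gtse1, a G2-phase gene, came nearest (3.91 ± 0.93, adjusted p = 0.0531). Of 22 glutathione transferases, Gsta1 was the 1 called member and the median was 0.47. Of 20 tested P450 genes of the CAR, PXR and AHR responses, Cyp2a4 was the 1 called member and the median was 0.60. Among lipid genes, Lpl was the 1 call in 19 genes of uptake and droplets, Scd2 was nearest in lipogenesis (3.34 ± 0.99, adjusted p = 0.0951), and Tm7sf2 was nearest in cholesterol synthesis (-0.61 ± 0.26, adjusted p = 0.238), where the median was 0.12. Hk2, a hexokinase that normal hepatocytes express little, was at 0.717, 1.39 and 24.3 CPM in knockout CCl4 with 0 counts in knockout untreated (adjusted p = 0.0736). Among fetal liver genes Afp, alpha-fetoprotein, was at 12.02, 37.4 and 19.9 CPM in knockout CCl4 and 2.31, 5.29, 3.46, 2.78 and 1.97 in wild type CCl4 (2.16 ± 0.85, adjusted p = 0.202), and among biliary and progenitor genes Prom1 was at 0.777, 23.03 and 6.07 CPM in knockout CCl4 (5.24 ± 1.81, adjusted p = 0.139).

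The growth hormone to STAT5 axis had a median of -0.07 with Igfals nearest (-1.04 ± 0.32, adjusted p = 0.105). Immediate-early genes had a median of 0.64, which was -0.17 without knockout CCl4 replicate 3, and Klf6 was nearest (2.07 ± 0.61, adjusted p = 0.0919). Stress response genes had a median of -0.23 with Psat1 nearest (3.23 ± 0.90, adjusted p = 0.0803). TGF-beta genes had a median of 1.05, 0.32 without that library, with Mmp14 nearest (1.58 ± 0.39, adjusted p = 0.0578), and iron genes a median of 0.40, 0.084 without it, with Tfrc, the transferrin receptor, nearest (1.39 ± 0.35, adjusted p = 0.0586). Oasl1 was the nearest interferon-stimulated gene (2.04 ± 0.52, adjusted p = 0.0625), and mt-Nd3 the nearest mitochondrially encoded gene (3.22 ± 1.02, adjusted p = 0.111). Stab2, a scavenger receptor of liver endothelium, was at 24.5, 19.4 and 113 CPM in knockout CCl4 (3.69 ± 1.03, adjusted p = 0.0801). Glucose, MHC class I and acute-phase genes had medians of 0.02, 0.15 and 0.13, whose sign changed with the scaling of the libraries, as it did for biliary genes (0.15). Of 4 tested cholangiocyte markers none was called by edgeR or DESeq2 and none had an unadjusted p under 0.05. The tested lymphocyte and neutrophil genes Cd4 and Cxcr2 were at -0.05 ± 1.24 and 1.02 ± 0.89. Alas2, an erythroid heme enzyme gene that was at 25.5 to 143 CPM here, had -1.15 ± 0.38 (adjusted p = 0.127).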
